A study of Homo sapiens with 18 samples.

Results

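Genes of endoplasmic reticulum (ER)-associated degradation were described in OVCAR5 cells exposed to stearate, oleate and an SCD1 inhibitor. The members were 35 genes chosen by symbol from their place in the pathway. DERL3, listed at a mean of 0.056 TPM (transcripts scaled to a fixed total per sample), fell under the minimum mean of 1 TPM, which left 34 members among 13789 tested genes and 60483 genes in the table. The minimum was set on the mean over all 18 samples. Every kept member was above it in each sample, the lowest single value being 3.85 TPM for EDEM3, so no member entered through a single group.

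OVCAR5 is an established human cancer cell line whose sample labels give high grade serous ovarian adenocarcinoma and a WT genotype. SCD1 is the enzyme that desaturates stearate, a saturated fatty acid, to the monounsaturated oleate, and it is inhibited by CAY10566. All 18 samples were kept for 24 h in medium with FFA-free BSA, and the 6 conditions of 3 replicates were DMSO, 1 µM CAY10566, 50 µM stearate with DMSO, 50 µM stearate with 1 µM CAY10566, 50 µM oleate with DMSO, and 50 µM oleate with 1 µM CAY10566. The comparisons asked how each fatty acid changed the transcriptome and whether SCD1 inhibition altered the change. The fatty acid groups of 6 samples (control, stearate and oleate) pooled the samples with and without CAY10566, so the controls comprised 3 DMSO and 3 CAY10566 samples. The study's methods state triplicate treatment for this experiment and independent in vitro experiments in general, but do not say whether these triplicates were separate cultures set up on different occasions. The p-values measure the spread between these samples, which may be technical.

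ER-associated degradation removes misfolded proteins from the ER. Mannosidases trim the glycans of a protein that fails to fold, lectins read the trimmed glycan, and a membrane complex around a ubiquitin ligase moves the protein into the cytosol. There it is tagged with ubiquitin, pulled out by the ATPase VCP with its cofactors, and destroyed by the proteasome. Several of these genes are known targets of the unfolded protein response (UPR), the transcriptional program that ER stress starts through ATF6, IRE1-XBP1 and PERK-ATF4. In lipid metabolism, the same pathway sets the stability of sterol-synthesis enzymes.

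Values are TPM, a share of all transcripts that is scaled for transcript length, so levels can be compared between genes. TPM keeps no read number, and the depth of each sample is unknown. Replicates of a condition correlated across genes at 0.982 to 0.987. One control library, CAY10566 replicate 3, stood apart: averaged over the 34 members, its log2(TPM + 1) lay 0.10 above the control mean, against −0.04 to 0.01 in the other 5 controls. Averaged over all genes it lay 0.08 above, against −0.03 to 0.002 in the other controls, so the shift was not particular to the members. For each fatty acid comparison the count of members called is also given without this library. The epithelial markers KRT7, KRT8, KRT18, EPCAM, CDH1 and MUC1 were all above 1 TPM, whereas of 5 serous ovarian markers only PAX8 (11.8 TPM) was, and WT1 (0.13), SOX17 (0.04), MUC16 (0.63) and ESR1 (0.47) were near 0. Of 5 gastrointestinal markers CDX2 (3.76 TPM) and KRT20 (1.69 TPM) were above 1 TPM, and VIL1 (0.03), CEACAM5 (0.22) and LGALS4 (0.35) were near 0. The markers thus matched an epithelial cancer line and did not match the serous label in 4 of 5 genes. Summed epithelial markers were 2628 to 2747 TPM in controls, 2122 to 2259 with stearate and 2397 to 2687 with oleate. Summed serous markers were 11.3 to 14.7, 8.79 to 14.2 and 12.8 to 18.3 TPM, and summed gastrointestinal markers 4.61 to 7.2, 5.03 to 7.13 and 5.52 to 6.71 TPM. Of the fibroblast markers only COL1A1 (5.04 TPM) passed 1 TPM, and none of 3 leukocyte or 3 endothelial markers did. Mitochondrial genes took 6.22% to 7.11% of TPM in controls, 4.93% to 7.2% with stearate and 4.30% to 7.31% with oleate. The part of these shifts in the results was not tested.

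HERPUD1 was the only member with an ERSE-II, an ER stress element, among the member promoters found. Whether the motif bears on its change with stearate was not tested. No promoter was found for STT3B, DERL1, DERL3, RNF139, RNF185, MARCHF6, ERLIN1, ERLIN2 and UFD1. Of these, DERL1, RNF139, MARCHF6 and UFD1 were called higher with stearate (below). Promoters from RefSeq (GRCh38.p14, 250 bases before to 50 after the gene start) were found for the other 26 of the 35 members. They were searched on both strands for ERSE (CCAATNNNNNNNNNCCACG), ERSE-II (ATTGGNCCACG) and UPRE (TGACGTGG), the recognition sequences of ATF6 and XBP1. No motif overlapped another. ERSE was in 0 of these 26 and in 27 of all 35116 promoters (0.0769%). Only exact matches were counted, so a promoter without a match may hold a site with a differing letter. ERSE-II was in HERPUD1 and in 19 promoters in all (0.0541%), and UPRE was in UBE2J1 and VCP and in 256 promoters (0.729%). The HERPUD1 promoter spans chr16:56931892-56932191 on the plus strand, and its ERSE-II, in capitals, begins 117 bases before the gene start:
HERPUD1 promoter: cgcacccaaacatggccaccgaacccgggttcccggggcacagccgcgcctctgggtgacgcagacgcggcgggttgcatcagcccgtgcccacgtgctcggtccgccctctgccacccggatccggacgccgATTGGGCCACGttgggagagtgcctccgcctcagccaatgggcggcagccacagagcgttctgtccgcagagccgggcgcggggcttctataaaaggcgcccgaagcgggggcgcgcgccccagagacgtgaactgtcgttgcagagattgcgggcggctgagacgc

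The UPRE sites are shown with up to 20 bases on either side because UBE2J1 was called higher with stearate and VCP was not. The UBE2J1 call depended on scaling (below). UBE2J1 (chr6:89352926-89352972, minus strand, first base 231 before the start) carries the site on the opposite strand, so its letters read reversed and complemented. VCP (chr9:35072787-35072834, minus strand, 189 before the start) carries it in the direction of the gene. Both are written along the gene's own strand with the site in capitals:
UBE2J1 site: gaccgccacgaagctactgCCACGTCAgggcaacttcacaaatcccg
VCP site: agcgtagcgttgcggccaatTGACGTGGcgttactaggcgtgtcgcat
A match is a description of these letters, and binding was not measured.

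Levels of the kept members ran from a mean of 6.33 TPM for EDEM3 to 199.6 TPM for VCP, with a median of 45.9 TPM. The membrane ligase core and adaptors summed to 563 TPM over 7 genes, with AUP1 (140 TPM), which brings UBE2G2 to the membrane, and SELENOS (127 TPM), which anchors VCP there, above HERPUD1 (95.2 TPM). SEL1L and SYVN1, the adaptor and the ligase at the heart of the complex, had nearly equal means of 40.2 TPM each. VCP and its cofactors summed to 523 TPM over 6 genes and were led by VCP and UFD1 (126 TPM). The 9 other membrane ligases and partners summed to 339 TPM, from RNF185 at 13 to RNF5 at 62.0 TPM. RNF5 has a near-identical copy, RNF5P1, listed at 7.84 TPM, and reads could be split between them. The 8 glycan-processing genes and lectins summed to 300.4 TPM and held both the low EDEM genes and the lectin OS9 (79.9 TPM). The 4 conjugating enzymes lay between 21.9 TPM (UBE2J1) and 48.9 TPM (UBE2J2).

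Stearate was compared with control first. With stearate, 13 of 34 members were higher and 0 lower at a false discovery rate (FDR) under 0.05 (limma on log2(TPM + 1), Benjamini-Hochberg adjustment over all tested genes). By comparison, 13.5% of all tested genes were higher and 5.97% lower. The members' share was 38.2%, and their median log2 fold change was 0.13 against 0.06 over all genes. At an unadjusted p under 0.05, 19 members (55.9%) were higher and 1, TMUB1 (−0.12, adjusted p = 0.0779 by limma), was lower, against 24.3% and 9.49% of all tested genes. The changes were small: only HERPUD1 was called with a rise of over 25%, a limit passed by 3.46% of all genes. In bulk RNA, fewer cells expressing a gene and less RNA per cell cannot be told apart. In the list of 11 tested members known as UPR targets 7 rose (median 0.22), and among the other 23 members 6 did (median 0.09). That list was written with earlier results of these data known.

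**Figure D1:**
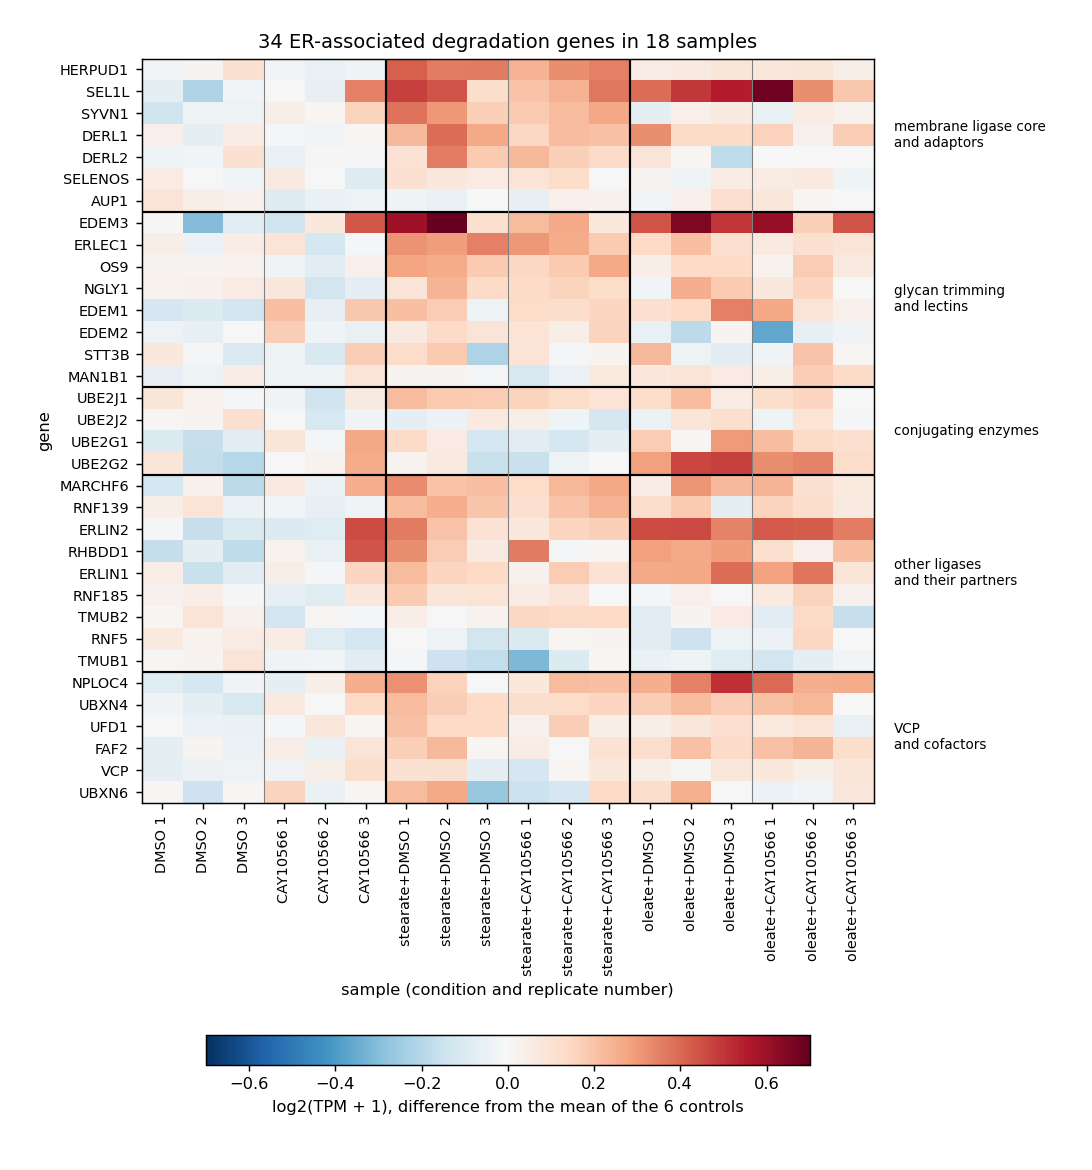
Heat map of 34 genes (rows, grouped by role and ordered by their change with stearate) in 18 samples (columns). Colour is log2(TPM + 1) minus the mean of the 6 controls, red for higher and blue for lower. HERPUD1, SYVN1, ERLEC1 and OS9 are red in all 6 stearate samples, SEL1L, ERLIN2 and NPLOC4 are red in the oleate samples, and CAY10566 replicate 3 is red among the controls for SEL1L, EDEM3, ERLIN2 and RHBDD1.

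In the membrane ligase core 5 of 7 tested genes rose, of which HERPUD1 and SYVN1 were still called with length and GC trends removed and SEL1L, DERL1 and DERL2 were not. HERPUD1 (ENSG00000051108, chr16:56932142-56944864), a ubiquitin-domain protein that joins the ligase complex, had a lowest, median and highest TPM of 82.8, 84.8 and 92.8 in controls and 102, 110.3 and 115 with stearate. Every stearate sample lay above every control. Its mean was 86.1 ± 3.56 TPM (SD, n = 6) in controls and 109 ± 4.39 with stearate, a log2 fold change of 0.34 ± 0.03 (SE, adjusted p = 3.7e-07 by limma). The exact two-sided permutation test over the 12 samples gave p = 0.00216, the smallest that its 924 splits allow.

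SEL1L (ENSG00000071537, chr14:81471547-81533853), the adaptor that holds the ligase complex together, ran from 28.5 through a median of 32.3 to 42.7 TPM in controls and from 36.2 through 41.3 to 46.55 TPM with stearate. The groups overlapped through a single control, CAY10566 replicate 3, which held the control maximum. The log2 fold change was 0.31 ± 0.09 (adjusted p = 0.0217 by limma, exact permutation p = 0.013). It was no longer called when DMSO replicate 2, stearate+DMSO replicate 1 or stearate+DMSO replicate 2 was left out, with adjusted p of 0.0556, 0.0561 and 0.052 by limma.

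SYVN1 (ENSG00000162298, chr11:65121780-65134532), the ubiquitin ligase of the complex, had a lowest, median and highest TPM of 34, 37.3 and 42.05 in controls and 42.26, 44.7 and 49.2 with stearate. The groups were separate by a narrow margin. Its log2 fold change was 0.25 ± 0.05 (adjusted p = 0.00112 by limma, exact permutation p = 0.00216). SYVN1 shares exon sequence with FAU on the same strand, a ribosomal protein gene at 1348 TPM that changed by −0.08 (adjusted p = 0.0687 by limma).

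DERL1, a membrane protein of the exit channel, rose from 55.8, 58.4 and 60.6 TPM (lowest, median, highest) in controls to 64.8, 68.3 and 77.1 TPM with stearate, without overlap. The log2 fold change was 0.24 ± 0.04 (adjusted p = 9.7e-04 by limma, exact permutation p = 0.00216). DERL1 shares exon sequence with TBC1D31 on the opposite strand, which changed by 0.26 (adjusted p = 0.0263 by limma). Its relative DERL2 rose by 0.20 ± 0.05 (adjusted p = 0.00616 by limma), and MIS12, which overlaps it on the opposite strand, changed by 0.08 (adjusted p = 0.475). SELENOS changed by 0.08 (adjusted p = 0.081) and AUP1 by −0.01 (adjusted p = 0.844), both short of the limma threshold.

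Among glycan-processing genes and lectins 3 of 8 rose. Both lectins that read trimmed mannose were among them. ERLEC1 (ENSG00000068912, chr2:53787009-53833038) ran from 38.6 through 42.4 to 44.8 TPM in controls and from 47.9 through 52.0 to 54.0 TPM with stearate, with no overlap (0.28 ± 0.04 on the log2 scale, adjusted p = 5.3e-05 by limma, exact permutation p = 0.00216). ERLEC1 shares exon sequence with ASB3 on the opposite strand, which changed by 0.41 (adjusted p = 9.3e-04 by limma), and the strand setting of the quantification was not given in the sources used here. OS9 ran from 70.3 through 74.97 to 76.0 TPM in controls and from 81.8 through 86.5 to 89.7 TPM with stearate, again without overlap (0.22 ± 0.03, adjusted p = 2.0e-04 by limma). AGAP2-AS1, which shares exon sequence with OS9 on the same strand, was at 9.28 TPM and changed by −0.01 (adjusted p = 0.954 by limma). NGLY1, the cytosolic enzyme that strips glycans from exported proteins, was called at 0.15 ± 0.05 (adjusted p = 0.0455 by limma) but in only 5 of 18 fits that left out a sample each, and not without CAY10566 replicate 3 (0.14, adjusted p = 0.0626 by limma). Its opposite-strand neighbour OXSM changed by 0.10 (adjusted p = 0.396 by limma).

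The mannosidase-like EDEM genes and the remaining glycan enzymes did not pass. On the log2(TPM + 1) scale EDEM3 had the second largest difference of all members, 0.33, but an SE of 0.12 (adjusted p = 0.0705 by limma). That scale understates the change of low genes, and EDEM3 was the least abundant member. Without CAY10566 replicate 3 it was called, at 0.41 (adjusted p = 0.0135 by limma), the only 1 of 18 left-out fits in which it was. Across those fits its adjusted p reached 0.168 by limma. EDEM1 changed by 0.13 and EDEM2 by 0.10 (adjusted p = 0.217 and 0.244). The mannosidase MAN1B1 and STT3B, a catalytic subunit of the glycan-attaching enzyme, lay at −0.01 and 0.03.

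Of the 4 conjugating enzymes, which carry ubiquitin to the ligases, only UBE2J1 rose (0.16 ± 0.04, adjusted p = 0.0156 by limma). Its call was lost after rescaling by size factors (0.10, adjusted p = 0.0729 by limma) and with length and GC trends removed (0.04, adjusted p = 0.402). UBE2J2, UBE2G1 and UBE2G2 lay between −0.04 and −0.02 with adjusted p of 0.729 to 0.77. Of the 9 other ligases and partners MARCHF6 (0.23) and RNF139 (0.21) rose, both membrane ligases that act on enzymes of sterol synthesis (adjusted p = 0.0156 and 0.00228 by limma). RNF139 overlaps TATDN1 on the opposite strand, which was at 96.8 TPM and changed by −0.12 (adjusted p = 0.0756 by limma). The ligases RNF5 and RNF185, the sterol-linked scaffolds ERLIN1 and ERLIN2, the ubiquitin-like TMUB1 and TMUB2 and the protease RHBDD1 lay between −0.12 and 0.18 and did not pass. Without CAY10566 replicate 3, ERLIN2 (0.27, adjusted p = 4.8e-04 by limma), RHBDD1 (0.24, adjusted p = 0.0178) and ERLIN1 (0.17, adjusted p = 0.0274) were called higher and TMUB1 (−0.14, adjusted p = 0.0439) lower. Of the 18 fits that left out a sample, ERLIN2, RHBDD1 and ERLIN1 were called in this 1 only, and TMUB1 in 3. Across the left-out fits their adjusted p by limma reached 0.257, 0.425, 0.193 and 0.1625. Among VCP and its cofactors UBXN4 (0.16) and UFD1 (0.12) were called (adjusted p = 0.0171 and 0.0198 by limma). Both calls were lost with size factors (0.10 and 0.06, adjusted p = 0.0508 and 0.209 by limma). With length and GC trends removed they were lost too (0.05 and 0.03, adjusted p = 0.303 and 0.608). VCP itself changed by 0.02 (95% interval −0.06 to 0.10), and NPLOC4 (0.16), FAF2 (0.09) and UBXN6 (0.02) were not called. NPLOC4 was called without CAY10566 replicate 3 (0.21, adjusted p = 0.0107 by limma), but in only 2 of 18 left-out fits (adjusted p up to 0.187).

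Values of 8 members, namely HERPUD1, SYVN1, DERL1, ERLEC1, OS9, NGLY1, UBE2J1 and RNF139, were higher in all 6 stearate samples than in all 6 controls. Such separation held for 4.7% of tested genes, against 23.5% of the members. Without CAY10566 replicate 3, 17 members were called higher and 1, TMUB1, lower, while the shares of all genes rose to 20.3% and 6.53%. The split of calls depended on scaling: after rescaling by size factors 8 members were higher and 1 lower, and 7.75% of all genes were higher and 10.3% lower. Once the dependence on transcript length and GC content within each sample was taken out, 4 members remained called higher, HERPUD1, ERLEC1, SYVN1 and OS9, and 7.69% of all genes were higher and 10.3% lower.

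**Figure D2:**
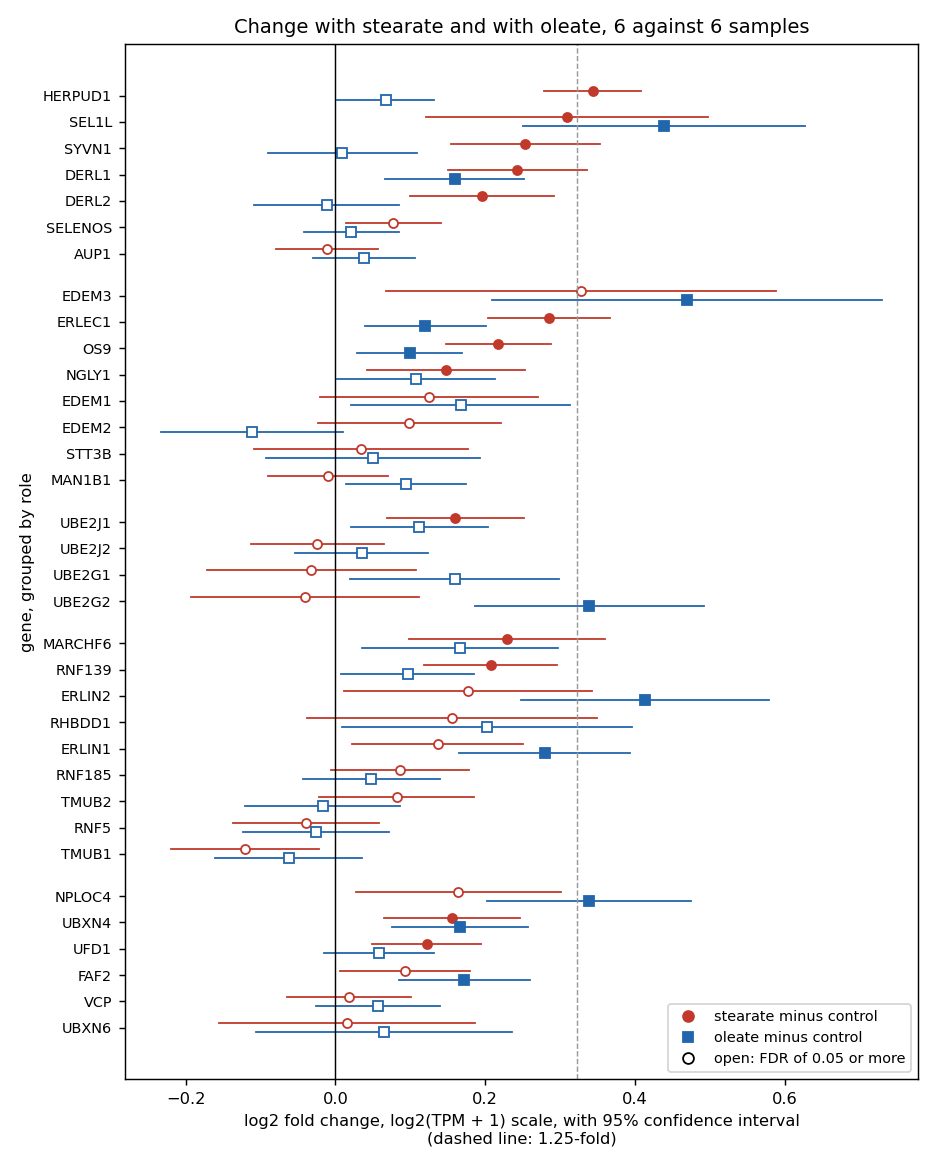
Log2 fold changes on the log2(TPM + 1) scale (x axis) of 34 genes (y axis, grouped by role), stearate minus control as red circles and oleate minus control as blue squares, with 95% confidence intervals. Filled symbols passed an FDR of 0.05, and the dashed line marks a rise of 25%. HERPUD1, SYVN1 and DERL2 are filled for stearate only, and EDEM3, ERLIN2, ERLIN1, UBE2G2 and NPLOC4 for oleate only.

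Oleate was compared with the same 6 controls, so the contrasts share those samples. With oleate 11 of 34 members were higher and 0 lower, and 23% of all tested genes were higher and 2.7% lower. The members' share of 32.4% and their median of 0.10, against 0.09 over all genes, stood close to that background. The rises were larger in size than with stearate for some genes, and 5 members were called with a rise of over 25%, as were 6.46% of all genes. They were EDEM3, SEL1L, ERLIN2, UBE2G2 and NPLOC4, from the 5 different roles. Of the 11 tested UPR targets 4 were higher.

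EDEM3 (ENSG00000116406, chr1:184690237-184754907), the least abundant member, went from 3.85, 4.855 and 7.07 TPM (lowest, median and highest) in controls to 5.72, 7.295 and 8.41 TPM with oleate. The groups overlapped through CAY10566 replicate 3, at the control maximum. The log2 fold change was 0.47 ± 0.12 (adjusted p = 0.0115 by limma, exact permutation p = 0.00433). With length and GC trends removed EDEM3 was no longer called (0.27, adjusted p = 0.0966 by limma). SEL1L reached 37.9, 45.6 and 53.8 TPM with oleate, all above the controls other than CAY10566 replicate 3 (0.44 ± 0.09, adjusted p = 0.00334 by limma, exact permutation p = 0.00649).

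ERLIN2, a scaffold that presents sterol-regulated enzymes for degradation, held a lowest, median and highest of 35.5, 37.4 and 55.1 TPM in controls and 51.0, 53.9 and 55.4 TPM with oleate. The 6 oleate values were tight, and CAY10566 replicate 3 lay inside their range. The log2 fold change was 0.41 ± 0.08 (adjusted p = 0.0028 by limma, exact permutation p = 0.0108). Its partner ERLIN1 rose by 0.28 ± 0.05 (adjusted p = 0.0029 by limma), from a mean of 33.7 ± 2.54 TPM to 41.1 ± 3.11 TPM (SD, n = 6).

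UBE2G2 (ENSG00000184787, chr21:44768580-44801826), the conjugating enzyme that AUP1 recruits, held 29.0, 33.7 and 40.2 TPM in controls and 36.6, 42.5 and 47.1 TPM with oleate (0.34 ± 0.07, adjusted p = 0.0041 by limma, exact permutation p = 0.00433). NPLOC4 (ENSG00000182446, chr17:81556887-81648465), which with UFD1 hands ubiquitinated proteins to VCP, held 42.6, 45.2 and 55.7 TPM in controls and 55.6, 57.9 and 66.9 TPM with oleate (0.34 ± 0.07, adjusted p = 0.00283 by limma, exact permutation p = 0.00649). In both genes the groups overlapped through CAY10566 replicate 3 only. The other calls were FAF2 (0.17), which tethers VCP to the ER and lipid droplets, UBXN4 (0.17), DERL1 (0.16), ERLEC1 (0.12) and OS9 (0.10). With each sample left out in turn, ERLEC1 was called in 14 of 18 fits (adjusted p up to 0.0747 by limma) and OS9 in 11 (up to 0.0857). FAF2 was the only member with all 6 oleate values above all 6 controls, a separation seen in 3.49% of tested genes.

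HERPUD1, the clearest member with stearate, went from a mean of 86.1 to 90.2 TPM with oleate, a log2 change of 0.07 ± 0.03 (adjusted p = 0.119 by limma). SYVN1 changed by 0.01 ± 0.05 and DERL2 by −0.01 ± 0.05. EDEM2 (−0.11), TMUB1 (−0.06), RNF5 (−0.03), TMUB2 (−0.02) and DERL2 were the 5 members with a difference below 0, none of them called.

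Oleate calls also depended on scaling. After rescaling by size factors 6 members were higher, EDEM3, SEL1L, ERLIN2, UBE2G2, NPLOC4 and ERLIN1, and EDEM2 and TMUB1 were lower, with 8.89% of all genes higher and 9.42% lower. With the trend on length and GC content removed, 5 were higher, SEL1L, UBE2G2, ERLIN1, ERLIN2 and NPLOC4, and EDEM3 was not called. VCP and SYVN1 were lower, with 5.5% of all genes higher and 6.31% lower. The differences of OS9 (−0.03), ERLEC1 (−0.03) and DERL1 (−0.005) were then below 0, as was that of OS9 with size factors (−0.003). Over the 34 members, the log2 change with oleate ranked with the length of the longest transcript (Spearman's rho 0.66, against 0.46 over all tested genes) and inversely with its GC content (−0.56 against −0.19). For stearate the same values were 0.44 and −0.54 against 0.24 and −0.30. These are descriptions across genes of the same libraries, and the part of length and GC content in each change was not tested further. Without CAY10566 replicate 3, 17 members were higher with oleate and 30.1% of all genes. The added calls were MAN1B1, EDEM1, UBE2J1, UBE2G1, MARCHF6 and RHBDD1. Each of them was called in only 1 to 3 of the 18 fits that left out a sample.

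**Figure D3:**
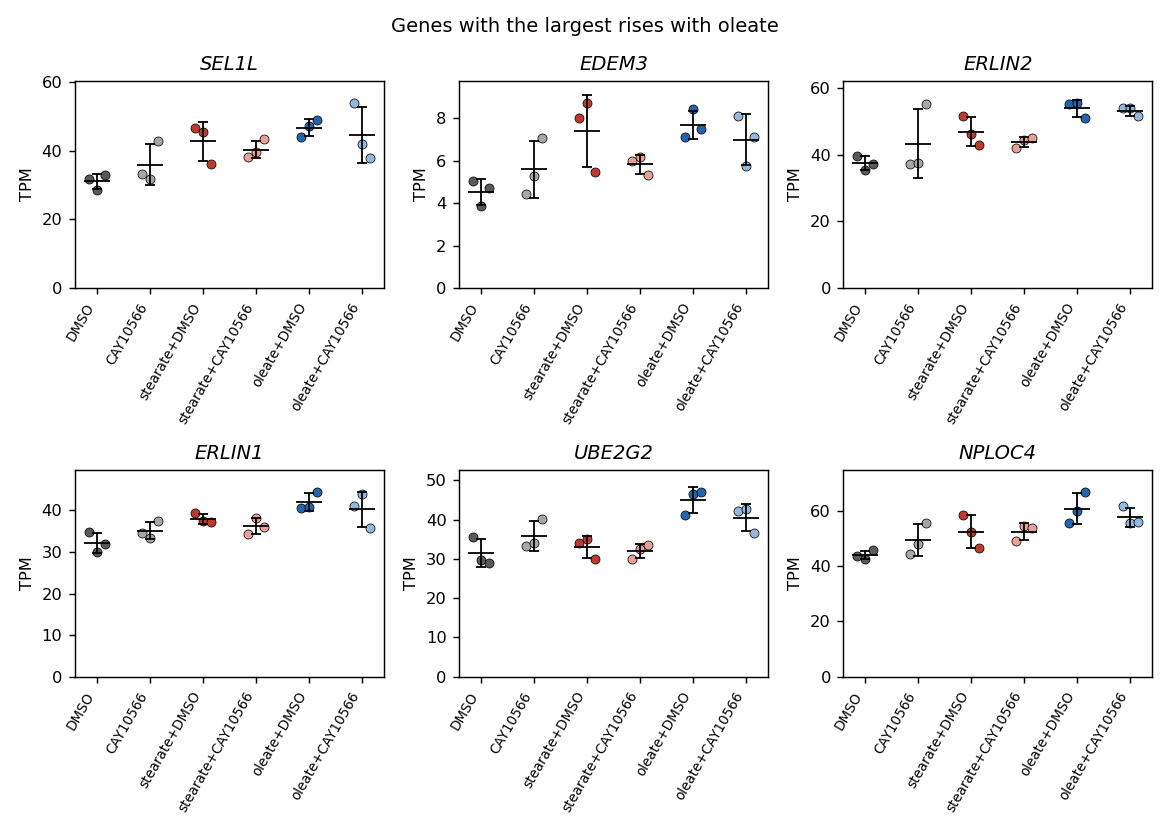
TPM (y axis, from 0) of SEL1L, EDEM3, ERLIN2, ERLIN1, UBE2G2 and NPLOC4 in the 6 conditions (x axis, points are replicates, bars are the mean ± SD of n = 3). One CAY10566 sample lies high in SEL1L (42.7 TPM) and ERLIN2 (55.1 TPM), within the range of the oleate samples.

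Stearate and oleate were then compared directly. Relative to oleate, 6 members were higher with stearate and 3 lower, where 6.85% of all tested genes were higher and 14.3% lower. The 6 were HERPUD1, SYVN1, EDEM2, DERL2, ERLEC1 and OS9, and each of them was called in all 18 fits that left out a sample. None was over 25% higher. The 3 lower ones were UBE2G2, ERLIN2 and UBE2G1, of which UBE2G2 was over 25% higher with oleate, as were 4.78% of all tested genes. Among UPR targets 5 of 11 were higher and 0 lower, and among the other 23 members 1 was higher and 3 lower. With size factors 8 members were higher and 2 lower, and 10.5% and 11.4% of all genes. With the trends on length and GC content removed 9 were higher and 3 lower, and 10.7% and 12.1% of all genes. Without CAY10566 replicate 3 the counts were 6 and 6, with MAN1B1, ERLIN1 and NPLOC4 added to those lower, and 7.85% and 17.2% of all genes. MAN1B1, ERLIN1 and NPLOC4 were each called in only 2 of the 18 left-out fits.

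HERPUD1 held 88.4, 90.4 and 91.4 TPM (lowest, median, highest) with oleate, below every stearate value. The log2 difference was 0.28 ± 0.03 (adjusted p = 3.1e-06 by limma, exact permutation p = 0.00216). SYVN1 held 35.8, 38.4 and 39.4 TPM with oleate and was likewise separate from the stearate samples (0.24 ± 0.05, adjusted p = 0.00111 by limma, exact permutation p = 0.00216). EDEM2 (ENSG00000088298, chr20:35115364-35147336) ran from 13.85 through 17.4 to 18.4 TPM with oleate and from 18.8 through 19.4 to 20.3 TPM with stearate (0.21 ± 0.06, adjusted p = 0.0147 by limma, exact permutation p = 0.00216). Neither fatty acid alone differed from control for EDEM2 beyond the threshold. DERL2 ran from 46.6 through 52.8 to 56.2 TPM with oleate and from 56.6 through 59.7 to 67.8 TPM with stearate (0.21 ± 0.05, adjusted p = 0.0034 by limma). These 4 had all stearate values above all oleate values, as did 2.94% of tested genes.

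**Figure D4:**
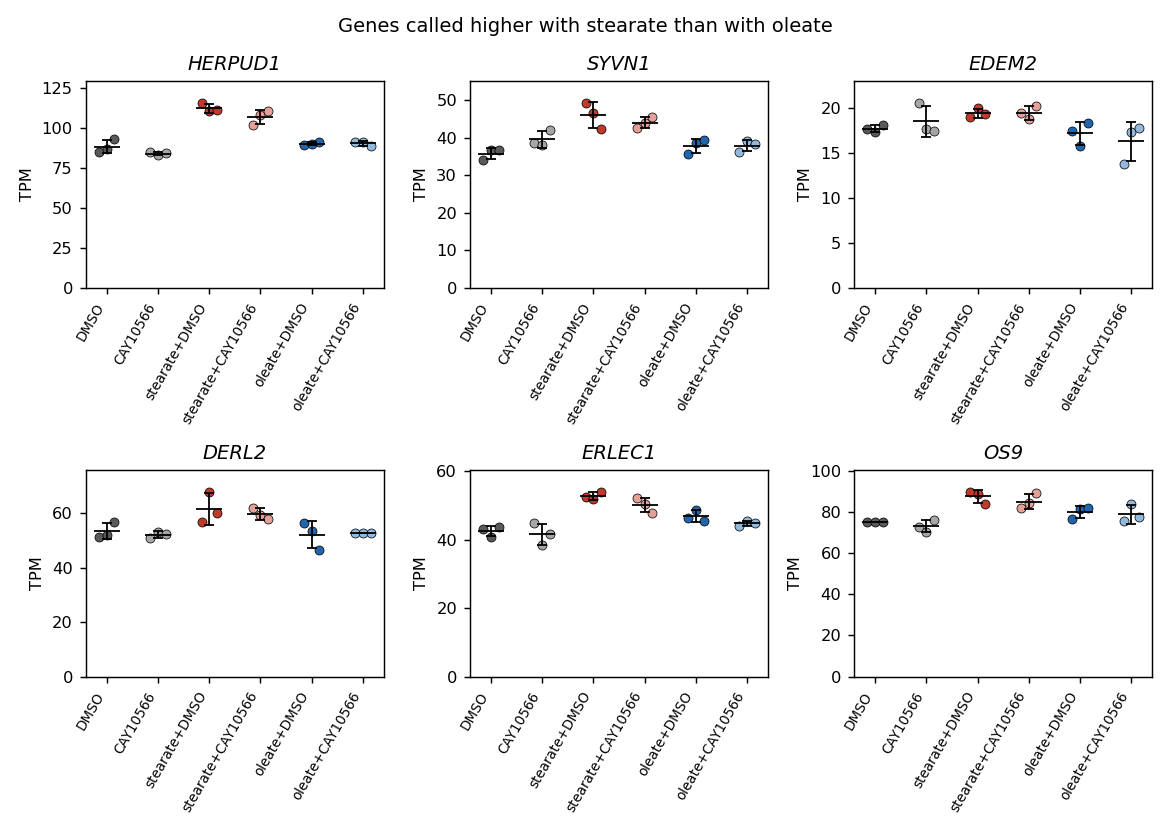
TPM (y axis, from 0) of HERPUD1, SYVN1, EDEM2, DERL2, ERLEC1 and OS9 in the 6 conditions (x axis, points are replicates, bars are the mean ± SD of n = 3). For HERPUD1 the 6 stearate samples lie between 102 and 115 TPM and the 12 others between 82.8 and 92.8 TPM.

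UBE2G2 went the other way, with 30.0, 33.1 and 35.2 TPM with stearate, all under the oleate minimum of 36.6 TPM (−0.38 ± 0.07, adjusted p = 0.00103 by limma, exact permutation p = 0.00216). It was the only member with all stearate values below all oleate values, which held for 7.28% of tested genes. ERLIN2 held 42.0, 44.7 and 51.7 TPM with stearate and overlapped the oleate samples through stearate+DMSO replicate 1 (−0.24 ± 0.08, adjusted p = 0.0397 by limma, exact permutation p = 0.00649). ERLIN2 was called in 8 of the 18 fits that left out a sample and UBE2G1 (−0.19) in 5. With the replicate number as a block 2 members were lower, UBE2G2 and MAN1B1, and ERLIN2 had an adjusted p of 0.0528 by limma. SEL1L did not separate the fatty acids (−0.13, 95% interval −0.32 to 0.06).

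CAY10566 was compared with DMSO over 9 against 9 samples with fatty acid as a covariate. Of the 34 members 0 were called by limma and 0 had an unadjusted p under 0.05, with log2 changes from −0.06 to 0.06. Over all genes 0% were called, and 748 had an unadjusted p under 0.05. Within the samples without fatty acid, which were pooled as controls above, 0 members were called between CAY10566 and DMSO, with log2 changes from −0.11 to 0.27. At an unadjusted p under 0.05, 6 members (17.6%) were higher with CAY10566 and 1, AUP1, was lower, against 6.38% and 3.76% of all genes. When CAY10566 replicate 3 was left out, an alternative added after the data were seen, these were 0 and 1, against 2.24% and 3.46% of all genes.

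Whether SCD1 inhibition altered the change with stearate was tested as an interaction. It was called for 0 of 34 members and for 1 of all genes (0.00725%), and 6 members (17.6%) had an unadjusted p under 0.05, against 9.36% of all genes. Without CAY10566 replicate 3 these were 3 members (8.8%) and 6.57% of all genes. The change in HERPUD1 was nearly equal without and with the inhibitor, 0.35 and 0.34 on the log2 scale, with a 95% interval of the difference of −0.12 to 0.12. OS9 (0.22 and 0.22), DERL2 (0.20 and 0.19) and UBE2J1 (0.16 and 0.16) likewise gave near-equal values. SYVN1 changed by 0.35 without and 0.15 with CAY10566 (adjusted p = 0.514 by limma for the difference), SEL1L by 0.44 and 0.17 (adjusted p = 0.619), and EDEM3 by 0.59 and 0.07 (adjusted p = 0.516). UBE2G1 changed by 0.14 without and −0.20 with the inhibitor (adjusted p = 0.488 by limma for the difference). AUP1 (−0.08 and 0.06, adjusted p = 0.512 by limma) and TMUB2 (−0.02 and 0.19, adjusted p = 0.516) went the other way. The 6 members at an unadjusted p under 0.05 were SYVN1, EDEM3, UBE2G1, UBXN4, AUP1 and TMUB2, and the 3 that stayed there without CAY10566 replicate 3 were UBE2G1, AUP1 and TMUB2. None passed the adjusted threshold, and their intervals were wide. Leaving out CAY10566 replicate 3 moved the interaction from −0.27 to −0.14 for SEL1L, from −0.52 to −0.37 for EDEM3, from −0.20 to −0.16 for SYVN1, from −0.34 to −0.26 for UBE2G1, from 0.14 to 0.15 for AUP1 and from 0.21 to 0.22 for TMUB2.

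**Figure D5:**
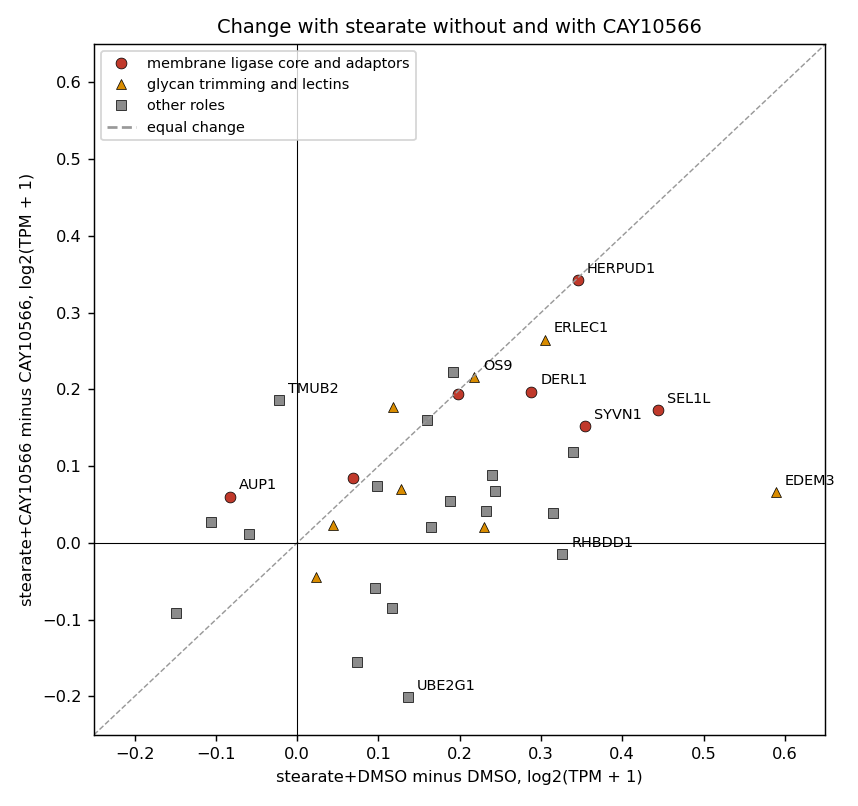
Difference between stearate and control in log2(TPM + 1) without CAY10566 (x axis) and with it (y axis), each point a gene and each value a mean of 3 against 3 samples. HERPUD1, OS9 and ERLEC1 lie near the dashed line of equal change, SEL1L, SYVN1 and EDEM3 lie below it, and AUP1 and TMUB2 lie above it.

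With 3 against 3 samples, 13 members were higher with stearate in the DMSO samples, where 12% of all genes were. Of the 13 called over 6 against 6 samples 9 were among them, while NGLY1, DERL2, UBE2J1 and RNF139 were not called and EDEM3, ERLIN1, ERLIN2 and RHBDD1 were. In the CAY10566 samples 1 was, HERPUD1, and 0.529% of all genes. With oleate 14 members and 22.4% of all genes were higher in the DMSO samples, and 0 members and 0% of genes in the CAY10566 samples. An interaction of oleate with CAY10566, added after the data were seen, was called for 0 members and 0% of all genes, with 5 members and 10.3% of all genes at an unadjusted p under 0.05 (1 member and 6.19% without CAY10566 replicate 3). SEL1L rose by 0.58 with oleate in DMSO samples and differed by 0.30 in CAY10566 samples (adjusted p = 0.583 by limma for the difference), ERLIN2 by 0.51 and 0.31 (adjusted p = 0.633) and UBE2G2 by 0.51 and 0.17 (adjusted p = 0.459). The interaction of oleate moved, when CAY10566 replicate 3 was left out, from −0.28 to −0.15 for SEL1L, from −0.20 to −0.02 for ERLIN2 and from −0.33 to −0.25 for UBE2G2.

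Regulators of the UPR were set beside the members. HSPA5, the ER chaperone and a classical target of the response, changed by 0.28 with stearate (adjusted p = 2.1e-05 by limma) and by 0.06 with oleate (adjusted p = 0.222). Of the 8 regulators and chaperones 6 were higher with stearate: HSPA5, XBP1, ATF4, DDIT3, EIF2AK3 and DNAJB9. With oleate 1 was, ERN1 (0.31), and 5 were higher with stearate than with oleate. The shares of all tested genes called higher in these 3 comparisons were 13.5%, 23% and 6.85%. HERPUD1, SYVN1 and HSPA5 were all higher with stearate than with oleate, while SEL1L and EDEM3 were not called between the fatty acids.

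Of 39 other genes of the pathway, 6 were higher and 1 lower with stearate, 11 higher and 2 lower with oleate, and 2 higher and 7 lower with stearate than with oleate. Their shares higher, 15.4% with stearate and 28.2% with oleate, lay near those of all genes, as did 5.13% higher and 17.9% lower between the fatty acids. The mannosidases MAN1A2 (0.48) and MAN1A1 (0.47), which trim glycans in the Golgi, were the largest of these rises with stearate (adjusted p = 0.0115 and 7.8e-04 by limma), and rose also with oleate (0.43 and 0.27). INSIG1, which brings ligases to HMG-CoA reductase and is itself a sterol-regulated gene, fell by 0.59 with oleate (adjusted p = 1.6e-05 by limma) and lay 0.45 higher with stearate than with oleate (adjusted p = 1.9e-05). INSIG2 fell by 0.20 with stearate (adjusted p = 0.00454 by limma).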

How the data were processed

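The data were 18 RNA samples from OVCAR5 cells, and groups and replicate numbers came from the sample labels. The authors sequenced a stranded mRNA library with paired ends, used Trim Galore for trimming, STAR 2.7.1a for alignment to GRCh38 and RSEM for quantification, and the deposited values are TPM per gene. TPM keeps no depth, so the replicate spread gives the precision. A line with no gene name was left out, and 93.1% of identifiers had a symbol. Coordinates, lengths and GC content came from GENCODE (same build, a later annotation than that of the study), and 98.8% of tested genes had a length.

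Limma 3.58.1 in R 4.3.3 (lmFit, eBayes with a trend) was fitted to log2(TPM + 1) of the 13789 genes with a mean of at least 1 TPM, on which the change of low genes is understated, and called at a Benjamini-Hochberg FDR under 0.05, with a limit of over 25% counted beside it. The model of the 3 fatty acid groups held all 18 samples. CAY10566 was tested with fatty acid as a covariate, and interactions in a model of 6 conditions. The procedure was tested on simulated data. Members named with all values were the 5 called ones with the largest change in each comparison; others named with their range were chosen after their values were seen. The members, role lists, UPR lists and other pathway genes were chosen with earlier results of these data known. Alternatives were a pseudocount of 0.1, no filter or a mean of at least 5 TPM, no trend, median-of-ratios size factors, removal of length and GC trends (splines with 3 degrees of freedom), CAY10566 as a covariate, DMSO or CAY10566 samples only, the replicate block, and each sample left out. The interaction without CAY10566 replicate 3 and that of oleate were added after the data were seen. Figures were drawn with matplotlib 3.10.9.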

Additional observations from a re-analysis of the deposited data

Results flagged for a closer look

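Over 102 groups of 6 samples (34 members in 3 fatty acid groups) 5 had a value far from the others by Dixon's criterion, which chance meets in about 1 in 20 groups, and 3 of the 5 came from the same library, CAY10566 replicate 3 of the controls. In it SEL1L was at 42.71 TPM, against 28.52 to 33.07 in the other controls. ERLIN2 was at 55.11 TPM there, against 35.5 to 39.68, and RHBDD1 at 29.37 TPM, against 18.8 to 21.75. EDEM2 was at 20.58 TPM in CAY10566 replicate 1, against 17.41 to 18.14 in the other controls. UBXN4 was at 46.1 TPM in oleate+CAY10566 replicate 3, against 51.9 to 54.09 in the other oleate samples.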

How the results depend on the processing

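TPM hold no depth, most changes were under 25%, and groups pooled samples with and without CAY10566. For members higher with stearate than in controls, the count of 13 became 1 with the 25% limit, 8 with size factors, 4 with length and GC trends removed and 1 in CAY10566 samples only. The count lower became 1 with size factors and was 0 to 1 with each sample left out. For oleate, the count of 11 higher became 5 with the 25% limit, 6 with size factors, 5 with length and GC trends removed, 0 in CAY10566 samples only, and 9 to 17 with each sample left out (17 without CAY10566 replicate 3). The count of 0 lower became 2 with size factors and 2 with the trends removed. For stearate against oleate, the 6 higher became 0 with the 25% limit, 3 in DMSO and 1 in CAY10566 samples only. The 3 lower became 1 with the 25% limit, 1 with no filter, 1 with no trend in eBayes, 1 in DMSO and 0 in CAY10566 samples only. With each sample left out that count was 1 to 6: it was 6 without CAY10566 replicate 3, and 1 without stearate+DMSO replicate 3, stearate+CAY10566 replicate 1 or 2, oleate+DMSO replicate 1 or 3, or oleate+CAY10566 replicate 1 or 2. Shares of all genes are not given for counts with no filter, no trend or a sample left out, CAY10566 replicate 3 excepted. Such counts stand without a background. The causes of the shifts in all these counts were not tested beyond the alternatives' own construction, such as fewer samples.

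The change with oleate turned negative for HERPUD1 with size factors (−0.035), and for SYVN1 with size factors (−0.091), with the trends removed (−0.112) and in CAY10566 samples only (−0.062). Of members called higher with oleate, OS9 (−0.003 with size factors, −0.026 with the trends removed), ERLEC1 (−0.025) and DERL1 (−0.005, both with the trends removed) also turned negative. For SYVN1 it ran from −0.019 to 0.041 with each sample left out. The replicate numbers did not pair the samples: deviations of same-numbered samples correlated at −0.18 to 0.103 over 36 pairs of samples. With the replicate block 12 members were higher with stearate, 11 with oleate, and 6 higher and 2 lower with stearate than with oleate, and no count moved by over 1.5 times. Shares of all genes are not given for the block, so its counts stand without a background.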
